A study of Mus musculus with 30 samples.

Results

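The pentose phosphate pathway was followed through 10 genes in a mouse B-cell lymphoma line and in lines grown from it under repeated paclitaxel or solvent. The genes were taken by symbol and cover the oxidative branch (G6pdx, its relative in the endoplasmic reticulum H6pd, Pgls and Pgd), the non-oxidative branch (Rpia, Rpe, Tkt and Taldo1) and the step that leads out to nucleotides (Prps1 and Prps2). All 10 of 10 were found among the 55401 genes of the count table, and all 10 passed the filter on low counts that left 9445 genes tested. The series held 30 libraries of RNA counted near the 3′ end of transcripts. Of these, 12 came from DMSO control lines, 17 from paclitaxel resistant lines and 1 from the Parental line. Every library, controls included, was of Eµ-Myc; p19ARF -/- genotype: a Myc transgene driven by the immunoglobulin heavy chain enhancer, with the p19ARF product of Cdkn2a deleted. The resistant lines were each grown in a well of their own through weekly rounds of paclitaxel, a microtubule-stabilising drug, and recovery in drug-free medium that contained the thiol 2-mercaptoethanol. The DMSO control lines had the solvent in place of the drug. The study also divides the resistant lines by phenotype, which the labels used here do not give, so the 17 lines are taken as 1 group and their means and SDs run across that division. All lines descend from a single parental lymphoma line, so they are separate lines of 1 origin, and p-values measure the spread between such lines.

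The pentose phosphate pathway branches from glycolysis at glucose 6-phosphate. Its oxidative branch makes NADPH, which cells spend on reducing glutathione and thioredoxin and on building lipids, and ribulose 5-phosphate. Its non-oxidative branch converts pentose phosphates back and forth to glycolytic sugars, and PRPP synthetase turns ribose 5-phosphate into PRPP, the starting point of purines, pyrimidines and NAD. Proliferating B cells draw on both outputs.

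G6pdx and Pgd encode the dehydrogenases of the oxidative branch, and their ratio is compared between the groups below. Their promoter windows are shown because they were also the only members with a match to the core of the antioxidant response element, the site that NRF2 binds. The core was searched as TGACNNNGC on both strands in RefSeq windows (GRCm38.p6) from 250 bases before to 50 after each start, of which 11 belonged to the 10 members. Capitals mark the match, and both sequences are written 5′ to 3′ on the strand of the gene, which is the minus strand for both.
G6pdx: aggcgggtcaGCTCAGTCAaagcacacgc
Pgd: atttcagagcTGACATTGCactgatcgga
The G6pdx stretch is chrX:74428919-74428947, and its match reads in reverse and begins at position -57 from the RefSeq start site of its window. The Pgd stretch is chr4:149166061-149166089, and its match begins at position 4 after the RefSeq start site of 1 of its windows. Both stretches lie inside the gene coordinates printed below, which come from another annotation (gencode) with other starts. Such a match was present in 2 of the 11 member windows and in 12.4% of all 32851 windows. The E-box CACGTG, to which Myc binds and which reads the same on both strands, was in 0 of the 11 member windows and in 7.15% of all windows. The match and its absence describe these letters only.

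Library totals ran from 480919 counts (Pac C1) to 6739131 counts (DMSO 11), with medians of 4052242 over the DMSO control and 3263532 over the paclitaxel resistant lines. Cdkn2a had 0 counts in all 30 libraries. In CPM, which are counts scaled to a TMM-adjusted library total of 1000000, the sum of the 7 B cell markers was between 2210 and 4390 in the DMSO control and between 1570 and 4040 in the paclitaxel resistant lines. Among them Cd79b had a log2 fold change of -0.64 (adjusted p = 0.0132, and 0.00837 without DMSO 12 and Pac H9), Ms4a1 -1.84 (adjusted p = 0.128) and Ptprc 0.63 (adjusted p = 0.0166). The 3 T cell markers summed to at most 9.06 CPM and the 4 myeloid markers to between 1.70 and 27.7 CPM in the DMSO control and between 4.20 and 50.4 CPM in the resistant lines, among them Itgam with a mean of 11.6 CPM in the DMSO control and 1368 counts over all libraries. Erythroid and fibroblast markers each summed to at most 0.521 CPM, and Cd3e, Adgre1 and Dcn had no count in any library. The part of these genes in the results was not tested. Against the mean log2 CPM of each group, itself left out, 2 of 12 DMSO control libraries (DMSO 11 and DMSO 12) and 2 of 17 paclitaxel resistant libraries (Pac C1 and Pac H9) were nearer to the other group. For the library labelled DMSO 12 the correlation over genes was 0.926 with its own group and 0.940 with the other, and for the library labelled Pac H9 it was 0.916 and 0.925. For DMSO 11 the values were 0.912 and 0.918 and for Pac C1, the library with the lowest total, 0.864 and 0.867. The labels from DMSO 12 on may have been moved by 1 library, in which case the library labelled DMSO 12 would be a resistant line, that labelled Pac H9 the parental line and that labelled Parental another line, and the well codes of the other resistant libraries would be wrong while their group would not. Whether this happened cannot be settled here. The results are therefore given by the deposited labels, all line names are those the libraries carry, and the main results are also given without DMSO 12 and Pac H9, the only libraries in the comparison whose group such a move would change.

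None of the 10 members passed the test between paclitaxel resistant and DMSO control lines (edgeR quasi-likelihood test, Benjamini-Hochberg adjusted p under 0.01), where 2.2% of all tested genes did, 94 higher and 114 lower (191 and 88 when scaled by library totals alone). No member passed without DMSO 12 and Pac H9 either, where 3.36% of tested genes did, nor with DESeq2 or edgeR's likelihood ratio test. At an unadjusted p under 0.05 there was 1 member, G6pdx, against 2368 of the 9445 tested genes. The fitted levels of 5 members were above and of 5 below those of the controls, with a median log2 fold change of 0.04, next to 0.07 over all tested genes.

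**Figure D1:**
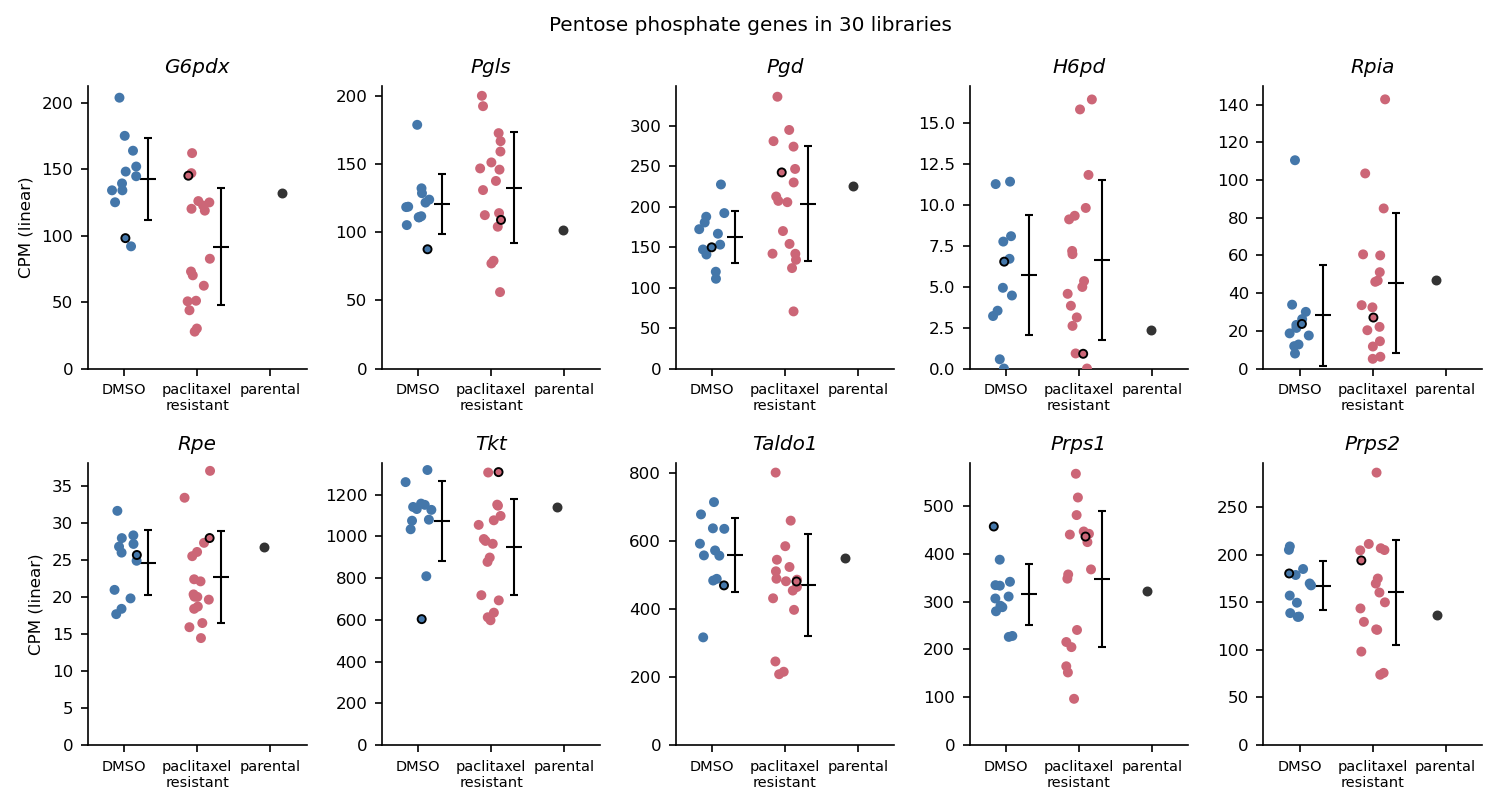
Level in CPM (linear axis) of the 10 genes in each library, with 1 point per library, the mean and SD of each group of 12 and 17 as bars, and the libraries labelled DMSO 12 and Pac H9 outlined in black. The points for G6pdx reach down to 27.7 CPM among the paclitaxel resistant lines and to 91.9 CPM among the DMSO control lines, while the Rpia points of both groups are spread 13.9-fold and 27.8-fold.

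G6pdx encodes glucose-6-phosphate dehydrogenase, which commits glucose 6-phosphate to the pathway and makes its first NADPH. The gene (ENSMUSG00000031400.10) lies on the minus strand at chrX:74409483-74429194 of GRCm38. In the DMSO control lines it ran from 91.9 CPM (DMSO 11) over a median of 142 CPM to 204 CPM (DMSO 5). In the paclitaxel resistant lines it ran from 27.7 CPM (Pac D4) over a median of 82.6 CPM to 162 CPM (Pac C1). The library labelled Parental had 132 CPM, inside the range of both groups. The lines Pac A6, C3, C11, D4, D7, D10, E1, F10 and G9 lay below every DMSO control line, and the other 8 lay within the DMSO control range. Of all tested genes, 4.02% had at least 9 resistant lines below the lowest control, and the median gene had 2.

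The group means of G6pdx were 143 ± 30.7 CPM (SD, n = 12) in the DMSO control and 91.7 ± 44.0 CPM (SD, n = 17) in the paclitaxel resistant lines. Its log2 fold change was -0.65 (SE 0.22, adjusted p = 0.0627). Without DMSO 12 and Pac H9 it was -0.74 (SE 0.23, adjusted p = 0.0366), and over 40 alternatives it stayed between -0.74 and -0.51 with adjusted p from 0.0289 to 0.118, so that the difference was in 1 direction throughout and never past the threshold. The resistant lines were also more unlike each other: the SD of log2 CPM was 0.32 among the DMSO control and 0.81 among the resistant lines, where the median tested gene had 0.46 and 0.68. An SD among resistant lines below that of G6pdx was found for 62.4% of tested genes, so its spread was not unusual there. In bulk RNA, a lower level in every cell and a smaller share of cells that express the gene cannot be told apart.

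Pgls encodes the lactonase of the second oxidative step. It ran from 87.6 CPM (DMSO 12) over 119 to 179 CPM in the DMSO control lines and from 56.1 CPM (Pac C1) over 138 to 200 CPM (Pac D7) in the resistant lines, so the groups overlapped, with 3 resistant lines below every control and 2 above, or 9 above without DMSO 9. At least 3 lines below were seen for 40.1% of tested genes and at least 2 above for 55.9%. Its log2 fold change was 0.14 (SE 0.15, adjusted p = 0.568). Exons of Pgls share bases with those of Fam129c on the same strand, so counts there are uncertain.

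Pgd encodes 6-phosphogluconate dehydrogenase, which makes the second NADPH and ribulose 5-phosphate. The gene (ENSMUSG00000028961.15, chr4:149149991-149166771, minus strand) shares no bases with another annotated gene. It ran from 111 CPM (DMSO 3) over a median of 160 CPM to 228 CPM (DMSO 5) in the DMSO control lines. In the resistant lines it ran from 70.6 CPM (Pac D7) over 207 CPM to 336 CPM (Pac G9). The lines Pac D10, E1, G9, H1, H3, H4 and H9 lay above every DMSO control line and only Pac D7 below. At least 7 resistant lines above the highest control were seen for 7.54% of tested genes. The means were 162 ± 32.5 CPM (SD, n = 12) and 204 ± 71.2 CPM (SD, n = 17), and the log2 fold change was 0.33 (SE 0.17, adjusted p = 0.218). The library labelled Parental had 226 CPM, between the highest DMSO control line and the next, DMSO 10 at 192 CPM.

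H6pd, whose product carries out the first oxidative steps inside the endoplasmic reticulum, had 0 to 80 counts per library. It ran from 0 CPM (DMSO 6) over 5.74 to 11.4 CPM in the DMSO control lines and from 0 CPM (Pac C1) over 5.35 to 16.5 CPM (Pac D7) in the resistant lines. A count of 0 allows up to 1.04 CPM in DMSO 6 and 6.23 CPM in Pac C1 (3 counts of the total, counting error only). The groups overlapped, and the SD of log2 CPM was 1.34 among the controls and 1.33 among the resistant lines. The log2 fold change was 0.25 (SE 0.43, adjusted p = 0.754) and moved to 0.09 without Pac D7 and to 0.43 without DMSO 11.

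**Figure D2:**
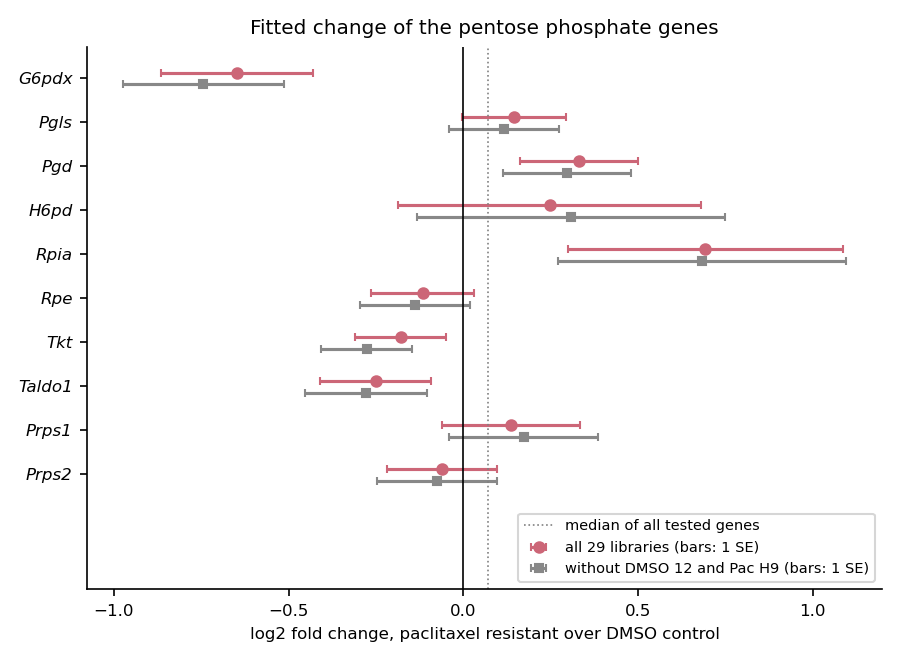
Fitted log2 fold changes of the 10 genes, paclitaxel resistant over DMSO control, with 1 SE as bars, from all 29 libraries (circles) and without the libraries labelled DMSO 12 and Pac H9 (squares). G6pdx stands farthest to the left at -0.65 and Rpia farthest to the right at 0.69 with the second longest bar, and the dotted line marks the median of all tested genes at 0.07.

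G6pdx and Pgd were set against each other within each library as log2 G6pdx CPM minus log2 Pgd CPM, which removes the scaling of the library. The ratio lay between -0.68 (DMSO 11) and 0.22, with a median of -0.15, in the DMSO control lines. In the paclitaxel resistant lines it lay between -2.25 (Pac D4) and -0.34 (Pac C1), with a median of -1.12. All 17 resistant lines were below the DMSO control median and 14 were below every DMSO control line. The others, Pac C1, Pac B2 at -0.52 and Pac H8 at -0.53, lay among the controls.

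The mean ratio was -0.19 ± 0.28 (SD, n = 12) in the DMSO control and -1.24 ± 0.64 (SD, n = 17) in the resistant lines, a difference of -1.05 on the log2 scale (two-sided permutation test with 100000 resamples, p = 4e-05). Without DMSO 12 and Pac H9 the difference was -1.12 (permutation p = 2e-05), and over 35 alternatives it ran from -1.12 to -0.90 (permutation p from 1e-05, the smallest these resamples can give, to 0.00017). The ratio was chosen with results for G6pdx already known, and it pairs 2 genes whose own tests did not pass.

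The lines reached a low ratio with different levels of the 2 genes. Pac D4 and Pac F10 had G6pdx at 27.7 and 30.1 CPM with Pgd at 134 and 124 CPM, a Pgd level inside the DMSO control range. Pac G9 and Pac E1 had G6pdx at 82.6 and 62.3 CPM with Pgd at 336 and 295 CPM, above that range. Pac H3 and Pac H4 had G6pdx at 123 and 126 CPM, among the controls, with Pgd at 281 and 274 CPM. In Pac D7 both genes were low, at 43.8 and 70.6 CPM, and the ratio was -0.68. The library labelled Parental had a ratio of -0.77, below all 12 DMSO control lines, and the library labelled Pac H9 had -0.74. Which of these is the parental line depends on the doubted labels, and with 1 such library its distance from the controls has no replicate check.

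**Figure D3:**
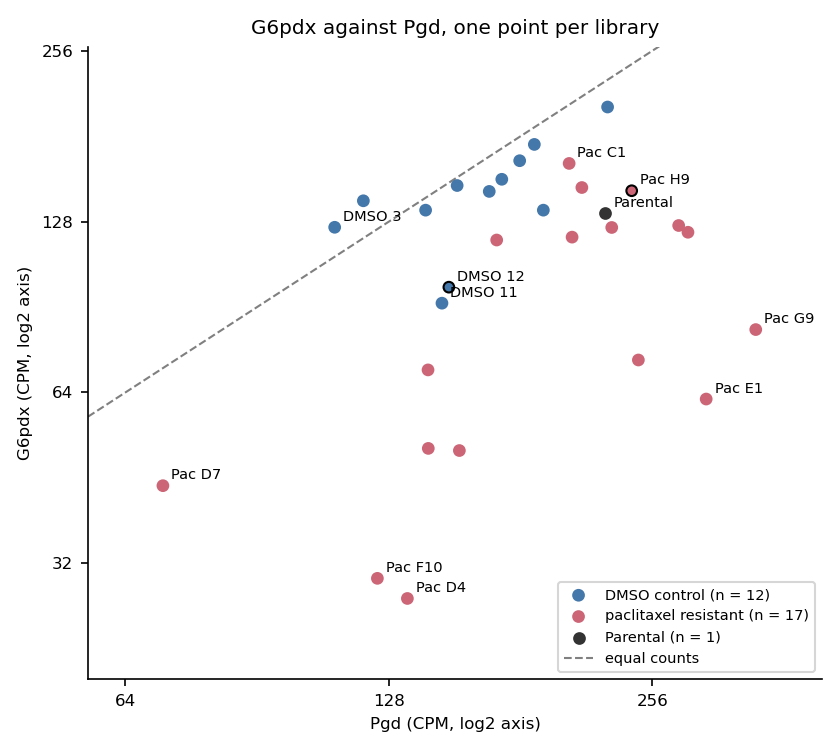
G6pdx against Pgd, both in CPM on log2 axes, with 1 point per library, DMSO 12 and Pac H9 outlined in black, and a dashed line where both genes have the same CPM. The DMSO control lines lie near the dashed line, at log2 ratios from -0.68 to 0.22, and the resistant lines lie below it, at -0.34 in Pac C1 down to -2.25 in Pac D4.

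Of the non-oxidative genes, Rpia, which encodes the isomerase that makes ribose 5-phosphate, varied most. In the DMSO control lines it ran from 7.95 CPM (DMSO 10) over a median of 22.3 CPM to 111 CPM (DMSO 11), and the next highest, DMSO 8, had 33.9 CPM. In the resistant lines it ran from 5.14 CPM (Pac D10) over 33.6 CPM to 143 CPM (Pac A6), followed by Pac F10 at 104 CPM and Pac D4 at 84.9 CPM. Pac C1, at 6.23 CPM, rested on 3 counts. The log2 fold change was 0.69 (SE 0.39, adjusted p = 0.272), and without DMSO 11 it was 1.20 (adjusted p = 0.034). The tested genes of chromosome 6, where Rpia lies, had their highest medians against the DMSO control median (log2) in Pac H8 (0.52), Pac H3 (0.49), Pac A6 (0.47), Pac G9 (0.43) and Pac C1 (0.40), where Rpia was at 51.1, 60.0, 143, 60.6 and 6.23 CPM. In Pac D4, Pac F10 and DMSO 11, where Rpia was high, these medians were 0.11, -0.09 and -0.04. The part of these shifts in the Rpia levels was not tested.

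Rpe, whose product interconverts ribulose and xylulose 5-phosphate, was at 24.6 ± 4.39 CPM (SD, n = 12) in the DMSO control and 22.7 ± 6.15 CPM (SD, n = 17) in the resistant lines, with a log2 fold change of -0.12 (SE 0.15, adjusted p = 0.646). It had the smallest spread of the 10 members among the resistant lines, with an SD of 0.36 on the log2 scale, and 6.74% of tested genes had a smaller one. Its exons share bases with Kansl1l on the opposite strand.

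Tkt encodes transketolase, which moves short carbon units between sugar phosphates. It ran from 603 CPM (DMSO 12) over a median of 1129 CPM to 1318 CPM (DMSO 9) in the DMSO control lines and from 598 CPM (Pac D4) over 978 CPM to 1308 CPM (Pac H9) in the resistant lines. The lowest control and the highest resistant value thus came from the libraries whose labels are in doubt. With them the log2 fold change was -0.18 (SE 0.13, adjusted p = 0.400), and without them it was -0.28 (SE 0.13, adjusted p = 0.175). In DMSO 12 the tested genes of chromosome 14, where Tkt lies, had a median of -0.77 (log2) against the DMSO control median, and the other 11 controls were between -0.035 and 0.056. In the resistant lines this median ran from -0.31 (Pac G9) over -0.005 to 0.09 (Pac H9). It was -0.30 in Pac D4, where Tkt was lowest, and 0.06 in Pac C11, where Tkt was at 612 CPM. The part of these shifts in the Tkt levels was not tested.

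Taldo1 encodes transaldolase, which shares sugar substrates with transketolase. It ran from 317 CPM (DMSO 11) over 566 to 715 CPM in the DMSO control lines and from 208 CPM (Pac C11) over 482 to 802 CPM (Pac C1) in the resistant lines. Pac C11, Pac D4 and Pac F10, at 208, 246 and 216 CPM, lay below every control, and 40.1% of tested genes had at least 3 lines below. Without DMSO 11 the lowest control was DMSO 12 at 469.9 CPM, and 7 resistant lines lay below it. The log2 fold change was -0.25 (SE 0.16, adjusted p = 0.327).

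Prps1 and Prps2 encode the catalytic PRPP synthetases. Prps1 was at 316 ± 63.9 CPM (SD, n = 12) in the DMSO control and 347 ± 142 CPM (SD, n = 17) in the resistant lines. It ran from 226 to 457 CPM (DMSO 12) in the controls and from 96.7 CPM (Pac F10) to 568 CPM (Pac C3) in the resistant lines, with 5 of these below and 3 above every control. Without DMSO 12 the highest control was at 388 CPM and 8 lay above (7 with Pac H9 left out too). Of tested genes, 20.1% had at least 5 lines below and 40.1% at least 3 above. Its log2 fold change was 0.14 (SE 0.20, adjusted p = 0.694). Prps2 was at 167 ± 25.4 CPM (SD, n = 12) and 160 ± 55.2 CPM (SD, n = 17), with 6 resistant lines below and 2 above every control, and a log2 fold change of -0.06 (SE 0.16, adjusted p = 0.836). At least as many lines below and above were seen for 13.5% and 55.9% of tested genes. Over 40 alternatives the log2 fold change ran from 0.01 to 0.205 for Prps1 and from -0.14 to 0.07 for Prps2. Neither mean differed beyond the spread between lines, while the SD of log2 CPM was 0.29 among the controls and 0.73 among the resistant lines for Prps1, and 0.22 and 0.53 for Prps2, next to 0.46 and 0.68 for the median tested gene. Among the resistant lines 55.4% of tested genes had a smaller SD than Prps1, and the SD of Prps2 was below that of the median gene.

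G6pdx, Prps1 and Prps2 all lie on the X chromosome. In 4 lines, Pac C11, Pac D4, Pac D7 and Pac F10, all of these genes were below every DMSO control line. These lines are named by that pattern, which is a description. Of all tested genes, 19.5%, 19.1%, 18.0% and 22.8% lay below every control in them. The TMM factors of these 4 lines were 1.12, 1.12, 1.10 and 1.26, and no DMSO control line had one above 1.025. The pattern depends on that scaling and was not repeated with library totals alone. Pac E2 and Pac H8 had no member outside the DMSO control range, and of all tested genes 8.62% were below and 9.54% above it in Pac E2 and 11.5% and 11.7% in Pac H8.

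The 272 tested X-linked genes had a median log2 fold change of -0.06, with 1 gene higher and 3 lower past the test. By library, their median against the DMSO control median ran from -0.22 (DMSO 11) to 0.03 in the controls and from -0.83 (Pac D4) over -0.07 to 0.07 (Pac B2) in the resistant lines. Pac F10 was next to Pac D4 at -0.43, so the lines with the least G6pdx were also those with the lowest X-linked median. In Pac D4 and Pac F10, G6pdx itself was at -2.33 and -2.22 on that scale. The level of G6pdx less the X-linked median was therefore compared as well, a choice made after seeing the data. It ran from -0.54 (DMSO 12) to 0.50 in the DMSO control and from -1.79 (Pac F10) over -0.61 to 0.25 (Pac C1) in the resistant lines, with 9 resistant lines below every control. The means differed by -0.67 (two-sided permutation test, p = 0.00246), and by -0.76 without DMSO 12 and Pac H9 (permutation p = 0.00083). Pgd less the median of its chromosome 4 differed by 0.24 (permutation p = 0.203).

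**Figure D4:**
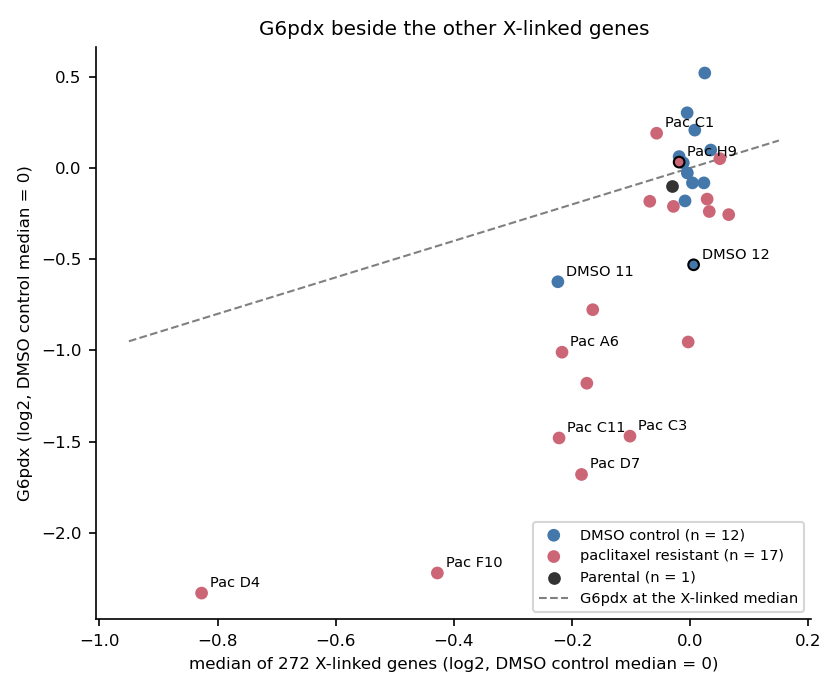
Level of G6pdx in each library against the median of the 272 tested X-linked genes, both as log2 relative to the median of the DMSO control lines, with DMSO 12 and Pac H9 outlined in black and a dashed line where both are equal. Pac D4 and Pac F10 lie lowest, at -2.33 and -2.22 for G6pdx with X-linked medians of -0.83 and -0.43.

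Around G6pdx, 11 of 35 annotated genes within 250 kb were tested. All but Ikbkg lie beyond the 3′ end of G6pdx, and no tested gene lies wholly beyond its 5′ end. None of the 11 passed the test (edgeR quasi-likelihood test), while 6 had an unadjusted p under 0.05. Of these 6, 5 were higher and 1 lower in the resistant lines, where 25.1% of all tested genes had such a p. Of the 11, 4 had a negative and 7 a positive log2 fold change, from -0.62 to 0.70. Atp6ap1, an accessory subunit of the proton pump of acidic organelles, was the lowest at -0.62 (adjusted p = 0.0128). It passed in 7 of 40 alternatives, among them the fit without DMSO 12 and Pac H9 (-0.70, adjusted p = 0.0056). Fam3a, the nearest gene beyond the 3′ end of G6pdx, was the highest at 0.70 (adjusted p = 0.0775). Ikbkg, the regulatory subunit of the IκB kinase, runs across G6pdx on the opposite strand and shares exon bases with it, and its log2 fold change was 0.04 (adjusted p = 0.913). Across the resistant lines, r with G6pdx was taken on both sides of the gap along the first principal component that is described below (11 and 6 lines), as a description with no test. It was over 0.5 on both sides for 4 of the 11 neighbours and for 2.88% of all tested genes: Emd (0.75 and 0.84), Rpl10 (0.54 and 0.56), Atp6ap1 (0.74 and 0.62) and Ikbkg (0.59 and 0.83). It was not for the other 7, among them Taz (0.35 and -0.06) and Fam3a (-0.29 and 0.68). Over the 12 DMSO control lines r was between -0.66 (Taz) and 0.71 (Atp6ap1). The limit of 0.5 was chosen after the values were seen. Whether counting used the strand is not given in the sources used here, so reads in the shared bases cannot be told apart.

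**Figure D5:**
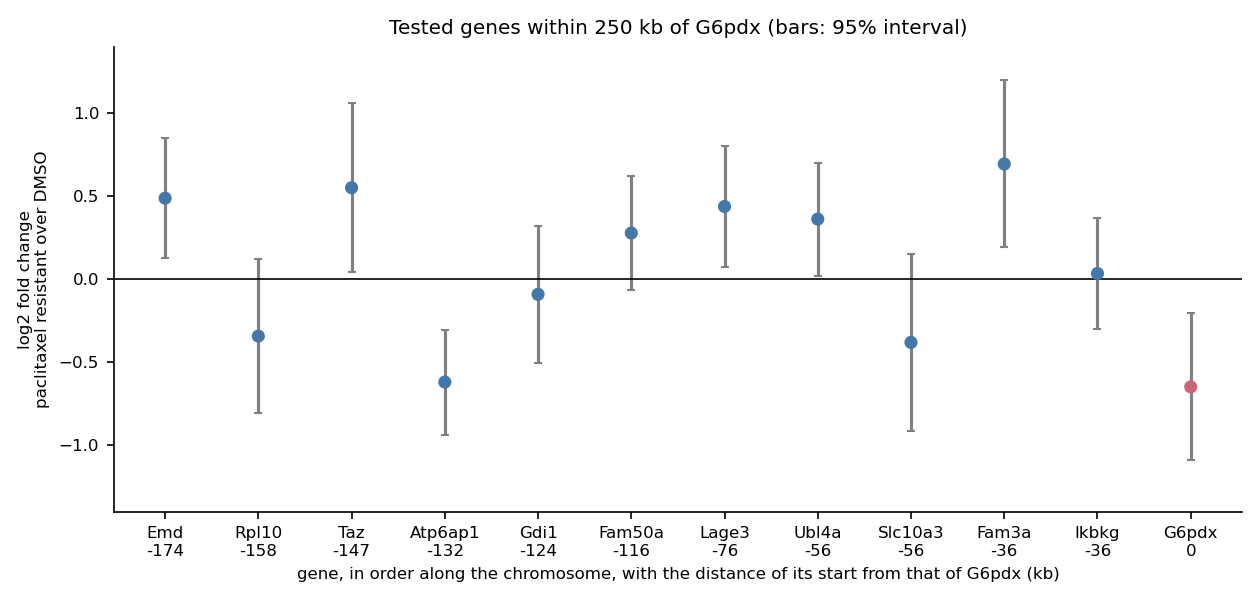
Log2 fold changes, paclitaxel resistant over DMSO control, of the 11 tested neighbours (blue) and G6pdx (red), in order along the chromosome, with the distance between start sites in kb under each name and 95% intervals as bars. Atp6ap1 at -0.62 and G6pdx at -0.65 are the only intervals wholly below 0, and Fam3a is highest at 0.70.

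The genes whose log2 CPM followed G6pdx most closely over the 29 libraries, members aside, were Uxt (Pearson r = 0.922), Ass1 (r = 0.920), Cysltr1 (r = 0.891), Msn (r = 0.885) and Cib1 (r = 0.884). Uxt, Cysltr1 and Msn are X-linked, as are 5 of the 20 most alike, and 2.88% of tested genes are. Ass1 encodes argininosuccinate synthase and Msn moesin, which ties actin to the membrane. The 29 points share the libraries' scaling, the 2 doubted labels and the difference of G6pdx between the groups, and all 5 genes had a negative log2 fold change. Without DMSO 12 and Pac H9 the values were 0.923, 0.920, 0.898, 0.889 and 0.885 in the same order. Within the 12 DMSO control lines alone they were 0.751, 0.747, 0.616, 0.746 and 0.642.

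Among members, the relation with G6pdx was planned over all 17 resistant lines pooled, with 9 relations. Of these, 5 passed an adjusted p of 0.05 in a permutation test of Pearson's r: Tkt (adjusted p = 0.0009), Prps2 (0.00576), Prps1 (0.00834), Pgd and Taldo1 (both 0.0134), and without Pac F10 and Pac D4, the lines farthest from the median of G6pdx, r was 0.725, 0.556, 0.403, 0.541 and 0.322 for them. By rank, Tkt (adjusted permutation p = 0.0054) and Prps2 (0.0438) passed. The share of all tested genes that passes the same test with G6pdx is not given here. These counts are therefore not read as particular to the pathway. The lines also fell apart along the first principal component (23.7% of the variance), so a pooled r is not given for all 17, and r was taken on each side of the gap as well, a choice made after seeing the data. The lines Pac A6, C11, D4, D7, F10 and G9 lay above a gap from -4.74 to 43.3, and the other 11 below. The control DMSO 11 lay above the gap too, at 55.1. In each of the resistant lines above the gap G6pdx was below every DMSO control line. The same held for Pac C3, D10 and E1 among those below the gap. Over the 12 DMSO control lines, Tkt (r = 0.81, Spearman's rho 0.68, permutation p = 0.00207) and Taldo1 (r = 0.77, rho 0.70, permutation p = 0.00355) followed G6pdx, both with p = 0.016 after Benjamini-Hochberg adjustment over the 9 relations (permutation p of rho 0.0187 and 0.0147, adjusted 0.0561 for both). Without DMSO 11 and DMSO 12, r was 0.54 and 0.43, so these relations rest in part on those libraries, and no test was run without them. Pgd had the highest rho over the 12 lines (0.71, permutation p = 0.0113, adjusted 0.0561) with r = 0.58 (permutation p = 0.0454, adjusted 0.107), and its r was 0.78 without those libraries. Over the 11 resistant lines the closest was Prps1 (r = -0.76, rho -0.73, permutation p = 0.00698, adjusted p = 0.0628), and r was -0.39 without Pac E1 and Pac C3. Over the 6 it was Prps1 too (r = 0.79, rho 0.83, exact permutation p = 0.0597, adjusted p = 0.351). No r passed an adjusted p of 0.05 in either set of resistant lines, which hold fewer lines than the 17. Of the other genes that passed over all 17, r over the 11 and over the 6 lines was 0.63 and 0.36 for Tkt, 0.12 and 0.68 for Prps2, 0.18 and 0.57 for Pgd and -0.19 and 0.74 for Taldo1 (adjusted permutation p from 0.118 to 0.799). By rank, H6pd over the 11 lines did (rho -0.83, permutation p = 0.00271, adjusted p = 0.0244), a gene with few counts.

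The other genes of the pathway and its neighbourhood were counted in 6 lists of 66 genes, of which 46 were tested. Of these 46, 1 was higher and 0 were lower past the test, next to 2.2% of all tested genes. That gene was Prpsap1, an associated subunit of PRPP synthetase with no catalytic activity of its own. It lies at chr11:116470845-116494202 on the minus strand. It ran from 30.2 CPM over a median of 40.8 CPM to 68.4 CPM (DMSO 12) in the DMSO control lines and from 46.2 CPM (Pac B2) over 90.0 CPM to 170 CPM in the resistant lines. All 17 resistant lines were above the DMSO control median and 11 above every control. The means were 46.5 ± 12.5 CPM (SD, n = 12) and 93.5 ± 36.9 CPM (SD, n = 17), and the gene rose by a log2 fold change of 1.02 (SE 0.19, adjusted p = 0.000812). It passed in 39 of 40 alternatives, the exception being libraries thinned to the smallest total (0.93, adjusted p = 0.0198). Its exons share bases with Gm11739 on the opposite strand. Prpsap2, the related subunit, was at 10.6 and 10.8 CPM (log2 fold change 0.01, adjusted p = 0.980).

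Among the other pentose phosphate and PRPP genes, 8 of 13 were tested, with a median log2 fold change of 0.26. G6pd2, a retrogene copy of G6pdx, was at 1.76 and 0.92 CPM on average and was not tested. Of the genes listed for NADPH supply outside the pathway, Nadk, Nadk2 and Mthfd1l included, 9 of 13 were tested and 0 passed. Idh2, the mitochondrial isocitrate dehydrogenase, had 0.49 (adjusted p = 0.198), and Me2, a malic enzyme, -0.43 (adjusted p = 0.105). Of the NADPH users of thiol defence, 7 of 9 were tested and 0 passed, with glutathione reductase Gsr at 0.95 (SE 0.38, adjusted p = 0.118). Of the enzymes that use PRPP or act later in purine and NAD synthesis (Paics, Gmps and Nmnat1), 8 of 10 were tested and 0 passed, and Hprt, the purine salvage enzyme, had -0.42 (adjusted p = 0.200).

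Of the glycolytic genes at the branch point, 8 of 13 were tested and 0 passed, with a median of -0.18. Gpi1, which takes glucose 6-phosphate on into glycolysis, had -0.38 (adjusted p = 0.275), and Tigar, which lowers glycolytic flow, 0.00135 (adjusted p = 0.999). Gapdh was counted at 5.93 CPM in the controls, a gene with many near-identical copies, so its value is uncertain. Of the NRF2 pathway, 6 of 8 were tested and 0 passed, with a median of -0.13. Nfe2l2, which encodes NRF2, had -0.26 (adjusted p = 0.280), the glutathione synthesis genes Gclc and Gclm had -0.29 and 0.14, and thioredoxin Txn1 had -0.54 (adjusted p = 0.0818). Over all 6 lists the medians ran from -0.18 to 0.26, where the median of all tested genes was 0.07.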

How the data were processed

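RNA of 30 lines (12 DMSO control, 17 paclitaxel resistant, 1 Parental, from the treatment labels) was made into 3′ digital gene expression libraries with barcodes in 2 subpools. The authors deposited raw counts per gene, which they obtained by alignment to GRCm38/mm10 with STAR 2.5.1b (per the labels and the study's methods). Which line was in which subpool, whether molecular identifiers were collapsed and whether counting used strand are not given in the sources used here, so no batch was modelled. All columns of per-sample values were used. Symbols, positions and exon overlaps came from gencode M21, and 54349 of 55401 genes had a symbol. Where a symbol named more than 1 gene, the gene with more counts was taken.

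Counts were filtered (filterByExpr), scaled (TMM) and tested with edgeR 4.0.16 (quasi-likelihood, Benjamini-Hochberg adjusted p under 0.01, the study's threshold) in R 4.3.3 over all tested genes of the 29 treated lines. The SE is the log2 fold change divided by the root of F. CPM are TMM-scaled, with a prior count of 2 where log2 CPM was used. DESeq2 1.42.0, other scalings, filters, thinning to 480919 counts and leaving out libraries were alternatives. The fit was tested on simulated data. Single values were compared by two-sided permutation tests (100000 resamples, or exact). All 10 members were named by the rule, and of each list the genes past the test. From the lists, the other genes printed were chosen after their values were seen. The members, the lists and the ratio of G6pdx to Pgd were chosen with earlier results of these data known.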

Additional observations from a re-analysis of the deposited data

How the results depend on the processing

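The fitted direction of 9 of the 10 members was the same under every alternative in which they were tested. Prps2 turned from -0.06 to 0.0665 with thinned libraries and to 0.0252 with library totals alone. H6pd was not tested after thinning. The number of tested genes that passed was 208 and became 321 without DMSO 12 and Pac H9, 338 without Pac C3 and DMSO 11, 103 of 5175 after thinning, 485 with DESeq2, 448 with the likelihood ratio test and 331 with the Parental library as its own group, and no member passed in any of them. Leaving out 1 library at a time gave 139 to 299. With library totals alone 191 genes were higher and 88 lower (94 and 114 with TMM), and the median of all genes was 0.19 in place of 0.07. In that fit G6pdx was at -0.57 (adjusted p = 0.0628). By Pearson's r over all 17 resistant lines, 5 members correlated with G6pdx at an adjusted p under 0.05 in the permutation test (4 after thinning). There were 0 within the 11 lines and 0 within the 6, a split chosen after seeing the data. The cause of this difference was not tested. By rank, Tkt and Prps2 passed over the 17 lines and H6pd over the 11. The share of all tested genes that passes the same test is not given here. No paired analysis was possible because the groups share no replicate numbers from the labels. H6pd had 0 to 80 counts per library, and 3 counts stand behind Rpia in Pac C1.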
